A study of Mus musculus with 4 samples.

Results

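The genes described here encode the nuclear-made proteins of the mitochondrial respiratory chain. They were taken by symbol: every gene beginning Nduf, Uqcr, Cox4, Cox5, Cox6, Cox7, Cox8 or Atp5, the 4 Sdh genes, Cyc1 and Cycs. The accessions on the arrays matched 93 such genes with 119 probes, of 18217 named genes and 41174 probes. Of these, 89 genes with 114 probes were bright enough to be tested, of 12388 genes and 23497 probes in all. The prefix Nduf also covers 7 assembly factors (Ndufaf1 to Ndufaf7), which are not parts of the finished enzyme and were kept apart from the 36 subunits of complex I.

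The cells were microvascular smooth muscle cells of male C57BL6 mice, derived from a Rap1a knockout model. Both groups carried that knockout and differed in the virus they received, either an empty shuttle vector or a shuttle vector named RapCA. Virus was given overnight at plating in serum-free medium, after growth in 10% serum, and cells recovered for 48 hours in 0.5% serum. Each of 4 two-colour Agilent arrays carried 1 RNA of each kind, with the empty vector always in Cy5 and RapCA always in Cy3. No dye swap was made, so the condition and the dye cannot be told apart. The series title presents the contrast as a knockout against a rescue. Replicates are described as biological, but no label says that cells came from separate animals or cultures, so p-values measure only the spread between these arrays.

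Values are log2 ratios of the RapCA-labelled channel over the vector-labelled channel, so that 1 is a doubling, given for arrays 1 to 4 and as mean ± SD (n = 4). The probe for Rap1a itself went against the labels, with ratios of -0.46, -1.02, -1.31 and -1.47 (-1.06 ± 0.44, limma adjusted p = 0.00204). Although the cells are labelled as knockout, the probe was well above background on all 4 arrays in both channels, at mean log2 signals of 11.7 and 12.7. Where it lies relative to the deleted part is not known here, so it may check nothing. Every direction follows the dye labels only, and would turn if the dyes had been recorded the wrong way round. Array 1 stood apart. Its ratios correlated with the other arrays at 0.43 to 0.61 across the 89 genes, against 0.94 to 0.97 among arrays 2 to 4, and at 0.69 to 0.78 against 0.93 to 0.98 across 23485 probes. Genes and probes share arrays and are not independent. Of 8 smooth muscle markers, 6 were above background in both channels (Acta2, Tagln, Myh11, Cnn1, Smtn and Lmod1), whereas Des and Myocd were not above background in either. The Myh11 spot was dim, at a mean log2 signal of 6.54, near the 6.13 of Des. Of 7 endothelial markers, Pecam1, Cdh5, Tie1 and Emcn were not above background, while Vwf (-2.03) and Kdr (-0.75) were lower and Tek (1.16) was higher. Of 5 macrophage markers with a probe, Adgre1 and Ptprc were not above background, Cd14 and Csf1r were and were not called, and Lyz2 was called higher. Of 6 fibroblast markers 4 were higher, with ratios of 3.88 for Dcn and 2.76 for Dpt. Col14a1, among these 4, and Lyz2 were above background in the RapCA-labelled channel only and so were tested through the channel where they are high. The same holds for Tek, above background on 2 of 4 arrays in the vector-labelled channel. It also holds for the pericyte marker Kcnj8, above background on 3 of 4 arrays in the RapCA-labelled channel. Of 8 smooth muscle markers 3 were higher, and of 6 pericyte markers 3 were higher and 1, Kcnj8, was lower, where 28.9% of all genes tested were called higher and 24.9% lower. The part of such cells in the results below was not tested. In RNA from a whole culture, fewer cells of a type and less RNA per cell cannot be told apart.

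The respiratory chain sits in the inner mitochondrial membrane. Complex I takes electrons from NADH and complex II from succinate. Both pass them to coenzyme Q, complex III hands them to cytochrome c, and complex IV delivers them to oxygen. Complexes I, III and IV pump protons, and complex V, the ATP synthase, uses the returning protons to make ATP. A few subunits of complexes I, III, IV and V are encoded by mitochondrial DNA. No probe could be matched to the mitochondrially encoded subunits on the list used (14 symbols, 0 with a probe), so what follows concerns the nuclear genome only.

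With loess within arrays, transcripts of the respiratory chain differed little between the channels and went in both directions, whereas with median centring most calls were lower. Of 89 genes tested, 18 were higher in the RapCA-labelled channel, 15 were lower and 56 were not called at a limma adjusted p under 0.05 over all probes. Under median centring without loess, which keeps any trend of the ratio with spot brightness, these counts became 3 higher and 42 lower. Over all genes tested, 53.9% were called in either direction, 28.9% higher and 24.9% lower. The median ratio was 0.00 over the 89 genes and 0.02 over all genes. The median size of the ratio was 0.277 against 0.411 over all genes. For 82 of 89 genes the 95% confidence interval of the ratio lay wholly within a 2-fold change in either direction, as it did for 69.1% of all genes. A called difference of at least 2-fold was seen for 1 respiratory chain gene, Atp5b, whereas 16.6% of all genes reached that size with a call.

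**Figure D1:**
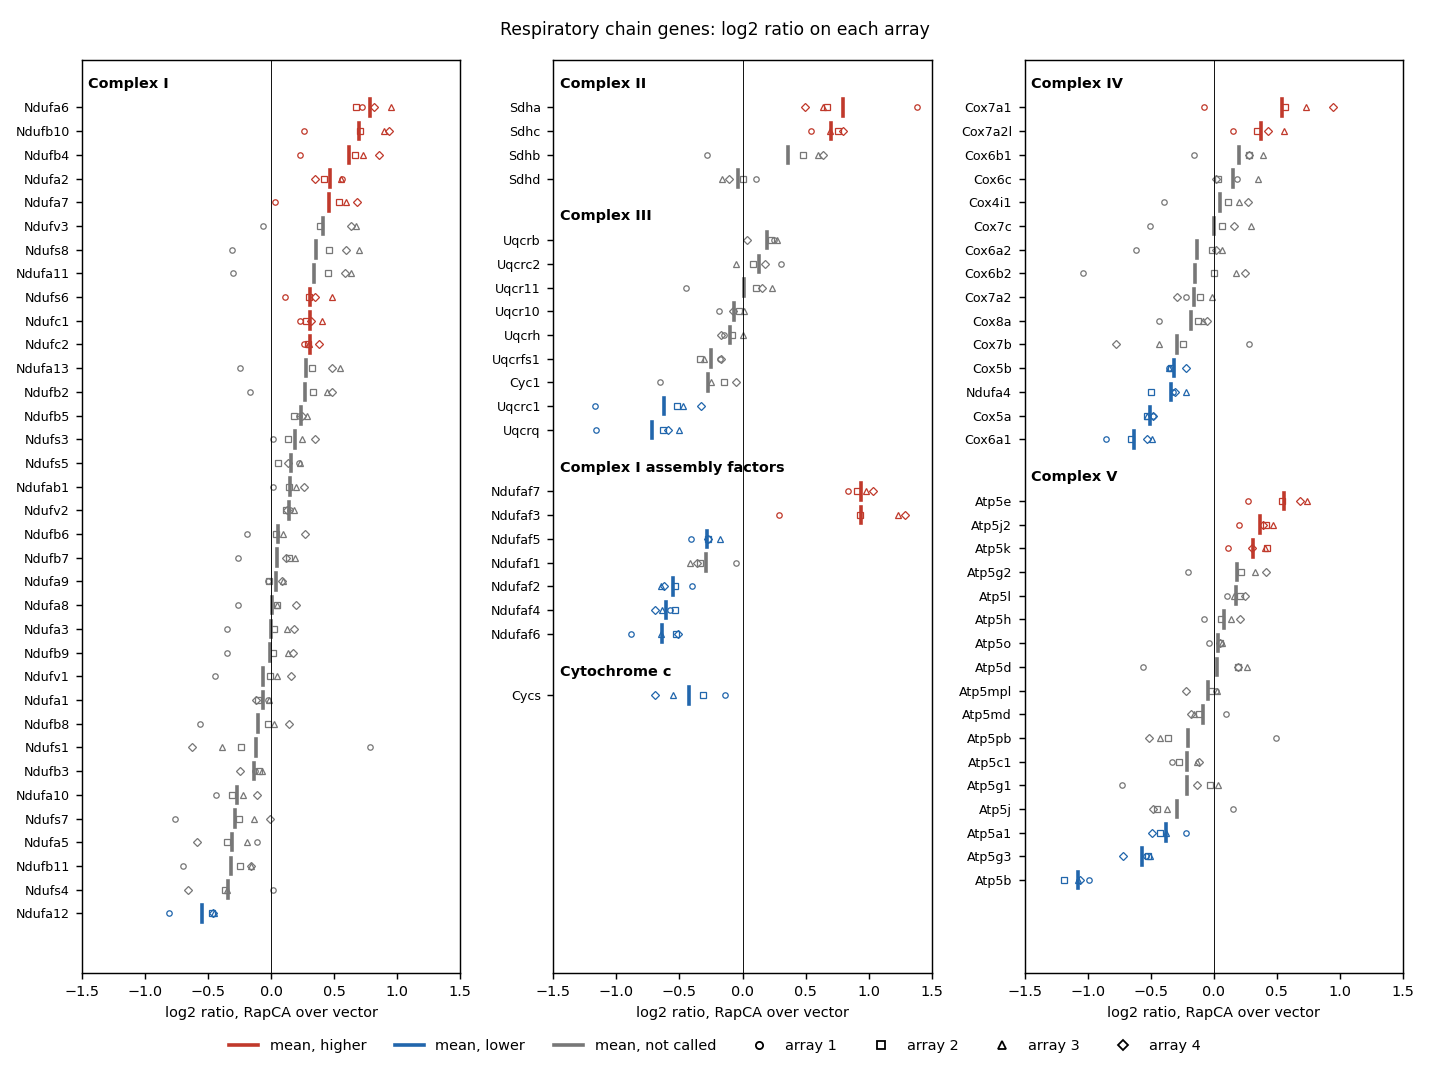
Log2 ratio of the RapCA-labelled over the vector-labelled channel (horizontal axes) of the respiratory chain genes tested, 1 left out, by complex, with 1 symbol per array and a bar for the mean. Most bars lie within 0.5 of 0, array 1 (circles) often lies away from the other 3, and red and blue mark genes called higher and lower (18 and 15 of all 89, counts that become 3 and 42 under median centring).

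The spots of these genes were bright. The members' median mean log2 signal was 14.8, above that of 95.4% of all genes tested. Spot brightness depends on the probe and is no measure of transcript amount. Loess within each array removes any trend of the ratio with brightness. With median centring the median over all genes was -0.17, and over the members it was -0.52. Under that scaling 12.4% of all genes were called higher and 20% lower, against 3 and 42 of the 89 members. The 1505 genes tested with a signal in the members' interquartile range (13.2 to 15.6) had a median of 0.09 with loess and -0.38 with median centring, so other bright genes moved down with them. Across the 89 members the Spearman correlation of signal with ratio was -0.23 with loess and -0.55 with median centring, a description over genes that share the same arrays. The scanner software's own ratios, with its own dye normalization, gave 13 higher and 10 lower.

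**Figure D2:**
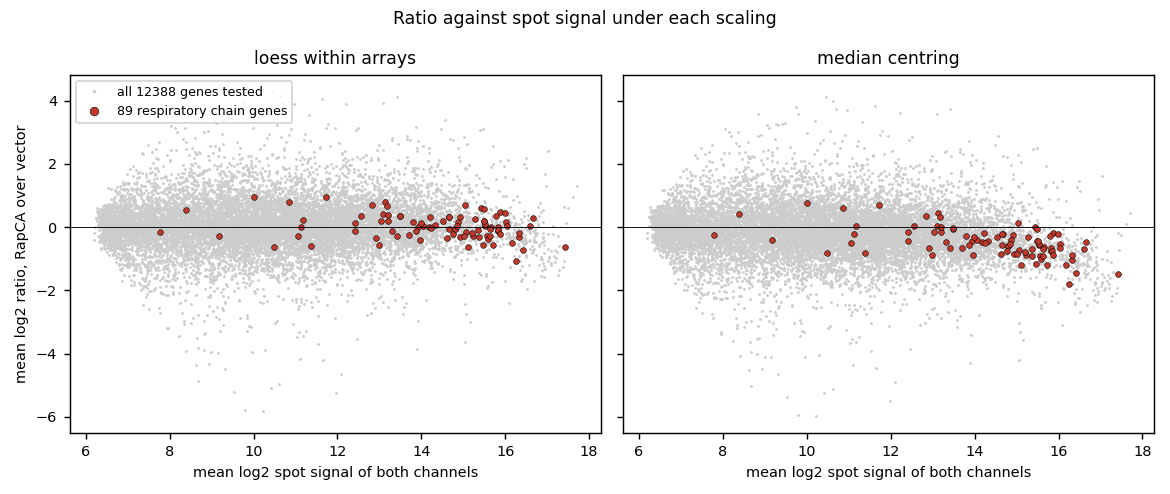
Mean log2 ratio (vertical axes) against mean log2 spot signal of both channels (horizontal axes) for all 12388 genes tested (grey) and the 89 respiratory chain genes (red), with loess on the left and median centring on the right. The red points crowd at the bright end, centred near 0 on the left (median 0.00) and below it on the right (median -0.52), and the grey points of like brightness shift down with them.

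Of the 33 genes called, 10 were called with the same sign under all 19 alternatives that gave each gene its own value, median centring included. Higher were the assembly factors Ndufaf7 and Ndufaf3. Lower were Ndufa12 of complex I, Uqcrc1 and Uqcrq of complex III, Cox5a of complex IV, Atp5b and Atp5g3 of complex V, and the assembly factors Ndufaf2 and Ndufaf6. Leaving out each array in turn kept 19 of the 33 calls throughout, and median centring kept 17 with the same sign. None of the 33 was called with the opposite sign under any alternative, while 9 of the 56 uncalled genes were called at least once with a sign opposite to their main ratio. Not all 19 alternatives were separate checks. Quantile normalization between arrays leaves every ratio as it was, so it could not change a call. The series table repeats the scanner software's ratios.

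By their brightest probes, Atp5b, Ndufaf7, Ndufaf3 and Sdha had the largest called ratios, 1 down and 3 up. For Atp5b and Sdha the other tested probes were not called. The promoters of these 4 genes are shown. They are the 250 bases before the transcript start, 5′ to 3′ on the gene's own strand, from RefSeq on GRCm38.p6. Capitals mark a match to any motif searched.
Atp5b (chr10:128083057-128083306, plus strand): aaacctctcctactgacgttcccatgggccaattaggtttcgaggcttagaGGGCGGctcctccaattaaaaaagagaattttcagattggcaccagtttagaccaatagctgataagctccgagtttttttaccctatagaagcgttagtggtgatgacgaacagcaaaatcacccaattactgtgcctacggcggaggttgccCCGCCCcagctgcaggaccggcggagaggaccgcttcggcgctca
Ndufaf7 (chr17:78936885-78937134, plus strand): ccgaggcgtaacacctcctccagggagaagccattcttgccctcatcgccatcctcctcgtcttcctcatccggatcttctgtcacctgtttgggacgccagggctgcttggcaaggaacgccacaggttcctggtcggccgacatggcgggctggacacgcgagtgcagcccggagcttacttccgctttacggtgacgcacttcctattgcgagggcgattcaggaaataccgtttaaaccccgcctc
Ndufaf3 (chr9:108567437-108567686, minus strand): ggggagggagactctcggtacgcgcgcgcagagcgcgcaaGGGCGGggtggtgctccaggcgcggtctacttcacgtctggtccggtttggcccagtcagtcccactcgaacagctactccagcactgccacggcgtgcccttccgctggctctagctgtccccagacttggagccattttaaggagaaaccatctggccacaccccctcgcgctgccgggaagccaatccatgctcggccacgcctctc
Sdha (chr13:74350241-74350490, minus strand): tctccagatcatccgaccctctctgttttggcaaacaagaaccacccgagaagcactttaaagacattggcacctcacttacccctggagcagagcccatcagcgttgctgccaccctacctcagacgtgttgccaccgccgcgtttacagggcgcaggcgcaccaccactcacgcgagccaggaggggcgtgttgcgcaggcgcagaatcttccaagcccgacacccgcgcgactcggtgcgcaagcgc
The 5 motifs searched are known from promoters of respiratory genes, and none contains another. Both strands of that window were searched for the 76 of 93 members that have an entry, with the first start in the table for the 5 members that have several. The core of the NRF1 motif, GCGCATGC, was in 10 of 76 (13.2%), against 2.26% of all 32851 promoters in the table. The ETS motif CCGGAAG was in 12 (15.8% against 6.91%), the ERR motif AAGGTCA in 5 (6.58% against 4.08%) and the SP1 motif GGGCGG in 30 (39.5% against 32.7%). The core of the YY1 motif, AAGATGG, was in 0 of 76, against 4.49% of all promoters. Bases past the transcript start were not searched, so these counts do not cover matches there. Of the promoters shown, that of Atp5b holds 2 SP1 matches and that of Ndufaf3 holds 1, while those of Ndufaf7 and Sdha hold none of the 5. Among members called higher, 2 of 15 held the NRF1 core, among those called lower 3 of 12, and among those not called 5 of 47.

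Complex I is the largest enzyme of the chain. Of its 36 genes tested, 9 were higher and 1 was lower, beside 28.9% higher and 24.9% lower of all genes tested. At an unadjusted p under 0.05 in limma 11 of the 36 were higher and 5 lower. The median ratio of the complex was 0.15. Median centring took that median to -0.43, and then 13 genes were lower and 0 higher (2 higher at that unadjusted p). Of all genes, 20% were lower and 12.4% higher under that scaling. With loess the median of complex I was -0.05 on array 1 and 0.12, 0.19 and 0.22 on arrays 2 to 4. The core subunits carry the flavin and the iron-sulfur clusters or bind the quinone. The 29 accessory subunits surround them and included 8 higher and 1 lower. The shares called in either direction were 27.8%, 50%, 22.2%, 40% and 35.3% for complexes I to V. For the assembly factors the share was 85.7%, and for all genes tested 53.9%.

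Among core genes that were not called, mean ratios ran from -0.29 (Ndufs7) to 0.36 (Ndufs8). Ndufs1, which holds iron-sulfur clusters of the electron entry module, had the widest spread of all members. It gave 0.78 on array 1 and -0.24, -0.39 and -0.63 on the others, so its mean of -0.12 describes no single array.

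Among accessory subunits, Ndufa6 had the largest ratio, with 0.72, 0.67, 0.95 and 0.81 (0.79 ± 0.12, adjusted p = 0.000755). The arrays lay close together and none reached 0, but with median centring the ratio was 0.43 and was not called. Ndufb10, of the membrane arm, had 0.26, 0.70, 0.89 and 0.94 (0.70 ± 0.31, adjusted p = 0.00496). Ndufb4, of the same arm, had 0.23, 0.66, 0.73 and 0.85 (0.62 ± 0.27, adjusted p = 0.00621). Both were positive on every array and lowest on array 1, and fell to 0.13 and 0.00, uncalled, with median centring. A second Ndufa7 probe gave 0.70 and a second Ndufc1 probe 0.55, both called, and that of Ndufa7 was 0.16 and uncalled with median centring. By their brightest probes, 5 accessory genes called higher, Ndufa2, Ndufa7, Ndufc1, Ndufc2 and Ndufs6, had smaller ratios of 0.31 to 0.47. These 5 ratios were below 0 and uncalled with median centring. Leaving out array 3 ended the call for Ndufa2. For Ndufa7, Ndufc1, Ndufc2 and Ndufs6, leaving out array 2, 3 or 4 ended it. The last 3 of these calls were also lost with the ratios of the scanner software (adjusted p = 0.0924, 0.102 and 0.136), with plain background subtraction and with a normexp offset of 16.

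Ndufa12 was the 1 complex I subunit that was lower. Its ratios were -0.81, -0.47, -0.46 and -0.46 (-0.55 ± 0.17, adjusted p = 0.00499). Arrays 2 to 4 were nearly equal and array 1 was lower still. A second probe gave -0.33 and was called, and the remaining probe gave -0.36 and was not (adjusted p = 0.0532). The 20 accessory genes not called had mean ratios from -0.34 (Ndufs4) to 0.41 (Ndufv3, adjusted p = 0.0501).

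The assembly factors that build complex I moved further than its subunits. Of 7 tested, 2 were higher, 4 were lower and 1 was not called, with median ratios of -0.40, -0.34, -0.42 and -0.36 on the 4 arrays. With median centring 2 were higher and 3 lower, beside 12.4% higher and 20% lower of all genes tested. All 7 had the same sign on every array. The difference between assembly factors and subunits was not tested.

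Ndufaf7 is a methyltransferase that acts on a subunit during assembly. Its ratios were 0.84, 0.91, 0.98 and 1.03 (0.94 ± 0.09, adjusted p = 0.000296), a 1.92-fold difference. A second probe gave 0.56, 0.98, 0.89 and 1.05 and was called too. In log2 signal the RapCA-labelled channel stood at 11.9 to 12.3 and the vector-labelled channel at 11.1 to 11.4, without overlap. With median centring it was still higher, at 0.70 (adjusted p = 0.0380).

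Ndufaf3 and Ndufaf4 act together early in assembly, and their ratios had opposite signs. Ndufaf3 gave 0.29, 0.94, 1.23 and 1.29 (0.94 ± 0.46, adjusted p = 0.00403), with array 1 well below the rest. Ndufaf4 gave -0.57, -0.53, -0.64 and -0.70 (-0.61 ± 0.07, adjusted p = 0.00182), and a second probe gave -0.37 and was called. All arrays had Ndufaf3 above 0 and Ndufaf4 below it, and both calls held with median centring, at 0.77 and -0.83. The call for Ndufaf4 was lost when channels were not paired by array. Another Ndufaf4 probe was not above background.

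Ndufaf2 is a paralogue of the subunit Ndufa12 and holds its place until late in assembly. Ndufaf2 gave -0.40, -0.53, -0.65 and -0.62 (-0.55 ± 0.11, adjusted p = 0.00337). The brightest Ndufa12 probe had a like mean (-0.55), but its other probes gave -0.33 and -0.36. On array 1 Ndufa12 was lowest and Ndufaf2 nearest to 0. With median centring Ndufaf2 was at -0.89 and Ndufa12 at -1.17. Ndufaf6 gave -0.88, -0.53, -0.64 and -0.51 (-0.64 ± 0.17, adjusted p = 0.00250). Ndufaf2 and Ndufaf6 were negative on every array and called lower with median centring too. Ndufaf5, which hydroxylates Ndufs7, was lower at -0.28 (adjusted p = 0.0458), a call lost with median centring, the scanner software's ratios, plain subtraction, a normexp offset of 16, unpaired channels, a variance trend, a filter on both channels, and without array 2, 3 or 4. Ndufaf1, of the complex that assembles the membrane arm, was not called at -0.29.

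Complex II is succinate dehydrogenase, shared with the tricarboxylic acid cycle, and all of its subunits are nuclear. It had the highest median of the 5 complexes, 0.53, with 2 of 4 genes higher and 0 lower (0 lower at an unadjusted p under 0.05 in limma). With median centring the median was 0.16 and 0 genes were called (1 lower at an unadjusted p under 0.05). Sdha, the flavoprotein that oxidises succinate, gave 1.38, 0.67, 0.64 and 0.50 (0.80 ± 0.40, adjusted p = 0.00523). A second Sdha probe gave 1.005, 0.17, 0.03 and -0.12 and was not called, so the call rests on 1 of 2 probes, and it was lost when channels were not paired by array. Sdhc, a membrane anchor, gave 0.54, 0.76, 0.70 and 0.80 (0.70 ± 0.11, adjusted p = 0.00119). Its arrays lay close together, and with median centring it was 0.37 and uncalled. The iron-sulfur subunit Sdhb gave -0.28 on array 1 and 0.48, 0.60 and 0.64 on the others, and was called only without array 1 or with array weights. The other anchor, Sdhd, had a ratio of -0.04.

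**Figure D3:**
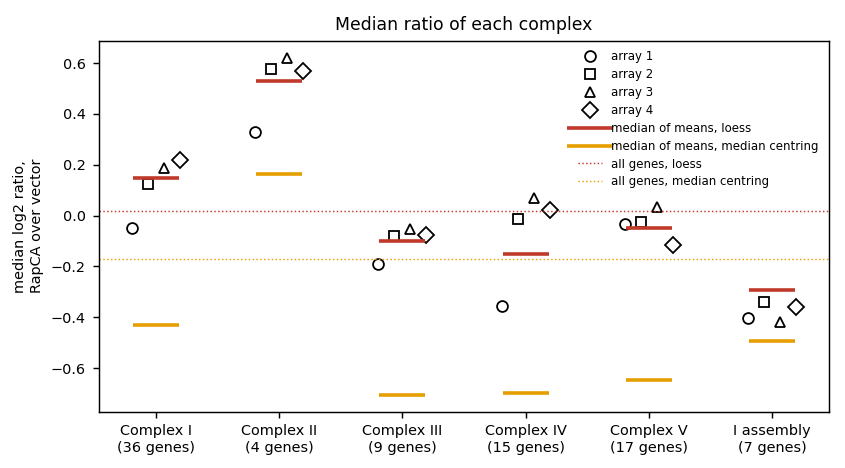
Median log2 ratio (vertical axis) of the genes of each complex and of the complex I assembly factors, per array (symbols) and over mean ratios with loess (red bars) or median centring (orange bars), with dotted lines for all genes. Complex II is highest on every array, from 0.33 to 0.62, the assembly factors are below -0.3 on every array, and median centring lowers every group, taking complex I from 0.15 to -0.43.

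Complex III, the cytochrome bc1 complex, had 2 of 9 genes lower and 0 higher (0 higher and 3 lower at an unadjusted p under 0.05 in limma). Its median was -0.10 with loess and -0.71 with median centring, where 6 were lower, beside 20% of all genes tested. Uqcrq, a small subunit, gave -1.16, -0.63, -0.51 and -0.59 (-0.72 ± 0.30, adjusted p = 0.00380). Uqcrc1, a core protein of the matrix side, gave -1.17, -0.52, -0.47 and -0.33 (-0.62 ± 0.37, adjusted p = 0.0125). Both were negative on all arrays and lowest on array 1. A second Uqcrc1 probe gave -1.001 on array 1 and -0.18, -0.11 and -0.09 on the others and was not called. The second core protein, Uqcrc2, was at 0.13 and uncalled. The catalytic subunits Uqcrfs1, the Rieske protein, and Cyc1 were uncalled at -0.25 and -0.28, although both were negative on all 4 arrays. Uqcrfs1 was called lower without array 1, with array weights and with no filter on dim probes.

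Cytochrome c carries electrons from complex III to complex IV, and its gene Cycs was lower. The ratios were -0.14, -0.31, -0.55 and -0.69 (-0.42 ± 0.25, adjusted p = 0.0243). Its other probes gave -0.82 and -0.76 and were both called. All 12 values of the 3 probes were negative, and array 1 was nearest to 0 for each probe. The call of the brightest probe was lost without array 2, 3 or 4 and when channels were not paired by array.

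Complex IV, cytochrome c oxidase, has tissue-specific isoforms for several subunits. Of 19 genes, 15 were tested, with 2 higher and 4 lower and a median of -0.15. The medians were -0.36 on array 1 and -0.02, 0.07 and 0.02 on arrays 2 to 4. Median centring moved the median to -0.70, with 1 higher and 8 lower, beside 12.4% higher and 20% lower of all genes tested. Cox6a1, the widely expressed isoform of its subunit, gave -0.85, -0.66, -0.49 and -0.53 (-0.63 ± 0.16, adjusted p = 0.00249). Cox5a, on the matrix side, gave -0.48, -0.53, -0.53 and -0.48 (-0.51 ± 0.03, adjusted p = 0.00366), the smallest spread of any member. Neither gene came near 0 on any array. With the scanner software's ratios the call for Cox6a1 was lost (adjusted p = 0.0642). Cox5b and Ndufa4, a subunit first assigned to complex I, were lower at -0.32 and -0.34. Both calls were lost with the scanner software's ratios, with plain subtraction and without array 2 or 3, that for Ndufa4 also without array 4 and that for Cox5b also with a normexp offset of 16.

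Isoforms were set side by side without a test of their difference. Cox6a2, the isoform of striated muscle, gave -0.62 on array 1 and -0.02, 0.07 and 0.02 on the others, and was not called. Cox7a1, the muscle isoform, gave -0.08, 0.57, 0.73 and 0.94 (0.54 ± 0.44, adjusted p = 0.0332), near 0 on array 1 and positive on the others. It was the 1 subunit of the 5 complexes called higher with median centring (0.42), but not with the scanner software's ratios, with no filter on dim probes, or without array 2, 3 or 4. The widely expressed Cox7a2 was uncalled at -0.16. Cox7a2l, a factor that joins complexes III and IV, was higher at 0.37 (adjusted p = 0.0248), a call lost with median centring (0.00), the scanner software's ratios, plain subtraction, and without array 2, 3 or 4. Of the 6 striated muscle markers, Myh6, Myh7, Ckm and Actn2 were not above background in either channel, whereas Tnnt2 was, with a ratio of -0.70. Ttn was above background on 3 of 4 arrays in the vector-labelled channel and 0 in the other. Its ratio was -0.59, and it was not tested.

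The other isoforms were uncalled: Cox4i1 at 0.05 (-0.70 and called lower with median centring), Cox6b1 at 0.20, the testis form Cox6b2 at -0.15, Cox7b at -0.29 and Cox8a at -0.18. Cox4i1, Cox6b1, Cox6b2 and Cox7b each had array 1 on the other side of 0 from array 4. Cox4i1 gave -0.39 on array 1 and 0.27 on array 4, and Cox6b1 gave -0.16 and 0.28. Cox6b2 gave -1.04 on array 1 and 0.25 on array 4, and Cox7b gave 0.28 and -0.78. Cox4i2, Cox7b2 and Cox8c were not above background on any array, and Cox8b was so on 2 of 4 arrays in the vector-labelled channel, so these 4 were not tested.

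Complex V had 3 of 17 genes higher and 3 lower, and their median was -0.05. Median centring moved it to -0.65, with 11 lower and 0 higher (0 at an unadjusted p under 0.05). That scaling called 20% of all genes tested lower and 12.4% higher. Atp5b encodes the catalytic beta subunit and had the largest ratio of all members. Its brightest probe gave -0.99, -1.19, -1.08 and -1.06 (-1.08 ± 0.08, adjusted p = 0.000166), a 2.11-fold difference. The log2 signal was 15.54 to 15.98 in the RapCA-labelled channel and 16.66 to 16.97 in the vector-labelled channel, without overlap. The 2 other Atp5b probes did not show it. They gave -0.15, 0.07, 0.06 and -0.25 for one and -0.45, 0.05, 0.12 and -0.17 for the other, with means of -0.07 and -0.11, neither called. All 3 probes match the same symbol, and where each lies in the transcript is not given in the files, so the largest value among the members rests on 1 of 3 probes.

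The alpha subunit gene Atp5a1 was lower at -0.38 (adjusted p = 0.0169), while its second probe was at -0.02 and uncalled. The call was lost with the mean over both probes, the ratios of the scanner software (adjusted p = 0.106), plain subtraction, and without array 2, 3 or 4. Atp5e, the epsilon subunit of the same catalytic part, was higher, with 0.27, 0.54, 0.74 and 0.69 (0.56 ± 0.21, adjusted p = 0.00607), and -0.06 with median centring. The genes Atp5g1, Atp5g2 and Atp5g3 encode the same mature protein of the membrane ring. Atp5g3 was lower, at -0.54, -0.52, -0.51 and -0.72 (-0.57 ± 0.10, adjusted p = 0.00272). Atp5g1 at -0.22 and Atp5g2 at 0.19 were uncalled, the latter -0.43 and called lower with median centring, while its second probe was called higher at 0.44. Of 5 genes of the rest of the membrane part, Atp5j2 and Atp5k were higher at 0.37 and 0.31, below 0 and uncalled with median centring. Both calls were lost with plain subtraction and without array 2, 3 or 4, and that for Atp5k also with the ratios of the scanner software (adjusted p = 0.109) and a normexp offset of 16. The 4 peripheral stalk genes had ratios from -0.29 to 0.08, with 0 called (0 at an unadjusted p under 0.05 in limma).

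Repeated probes give a check within a gene. Of 20 genes with more than 1 tested probe, 13 had the same call for all of their probes and 7 did not. Among the 13, only Cycs, Ndufaf4, Ndufa7, Ndufc1 and Ndufaf7 were called, by every tested probe, and the rest were uncalled throughout. Each of the 7 had at least 1 called and at least 1 uncalled probe. The median range between probes of a gene was 0.23. Opposite calls were found for 0 of the 20, though only genes with more than 1 called probe could show them. The 7 were Ndufa12, Ndufs6, Sdha, Uqcrc1, Atp5a1, Atp5b and Atp5g2. Atp5b had the widest range, from -1.08 to -0.07.

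**Figure D4:**
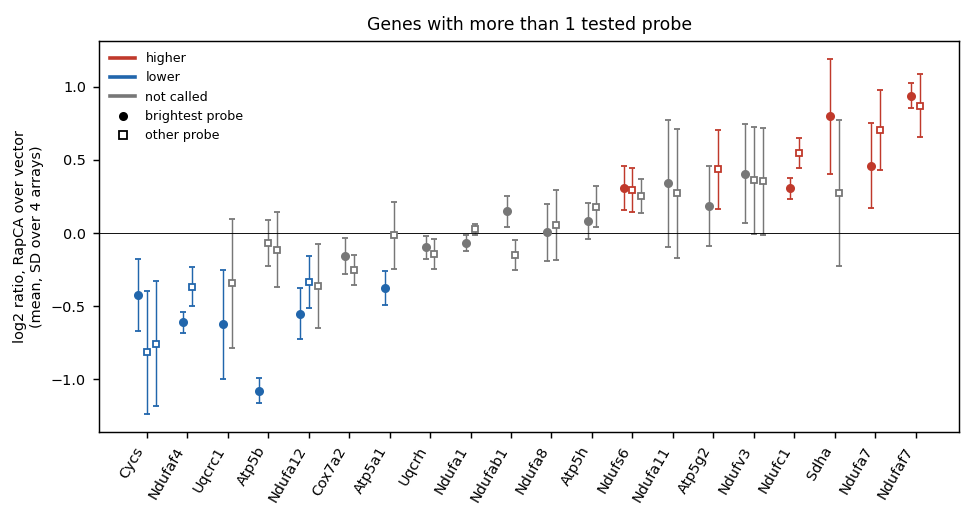
Mean log2 ratio with SD over 4 arrays (vertical axis) of every tested probe of the 20 genes with more than 1, ordered by mean ratio, with filled circles for the brightest probe. The brightest Atp5b probe stands alone at -1.08 with its other 2 near 0, whereas all probes of Cycs are below 0 and both of Ndufaf7 are near 0.9.

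Array 1 lay outside the range of the other 3 for 74 of 89 members, as it did for 86.2% of all genes tested. For arrays 2, 3 and 4 this held for 9, 42 and 53 members. The highest and lowest of 4 values always lie outside the range of the others. Every member thus adds to these counts by construction. The ratio had the same sign on all 4 arrays for 52 of 89 members, against 62.8% of all genes. Without array 1 the members called were 31 higher and 25 lower, and all 33 calls remained. That is 56 of 89, beside 71.1% of all genes called in the same fit. Without array 2, 3 or 4 there were 19 to 21 members called. In each of these fits, as with all 4 arrays, the share of members called was below that of all genes.

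**Figure D5:**
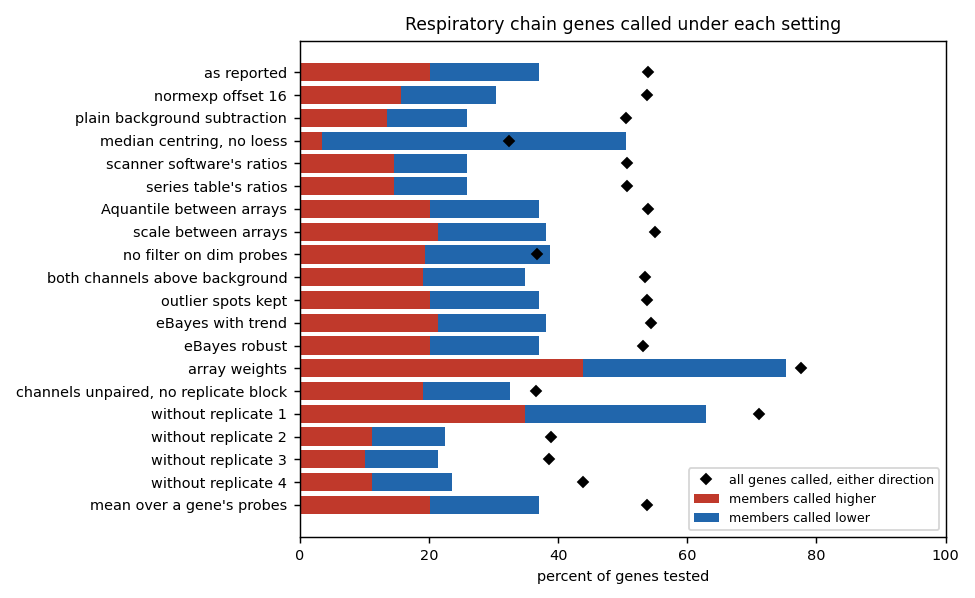
Share of respiratory chain genes called higher (red) and lower (blue), in percent of genes tested (horizontal axis), and share of all genes called (diamonds) under each processing setting (rows). The members' share is below that of all genes except with median centring (3 higher and 42 lower of 89) and without a filter on dim probes (18 and 18 of 93).

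Genes that work beside the chain were counted from separate lists. Of 43 tested assembly factors beyond the Ndufaf genes, 10 were higher and 10 lower, with a median of -0.08 (1 higher and 8 lower with median centring). Tmem242, which helps build the ring of complex V, was higher at 1.21 ± 0.15 (adjusted p = 0.000148). Ttc19, a complex III factor, was higher at 0.91 ± 0.10 (adjusted p = 0.000360), and not called with median centring (adjusted p = 0.0539). Tmem186, which works with Ndufaf1, was lower at -0.78 ± 0.14 (adjusted p = 0.000890), also uncalled with median centring (adjusted p = 0.0539).

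Of 24 tested genes of the tricarboxylic acid cycle and pyruvate dehydrogenase, 4 were higher and 7 lower (0 and 4 with median centring; median -0.16, or -0.42). Mpc1 and Mpc2, which together form the carrier that brings pyruvate into the matrix, were both higher at 1.02 and 0.62, and both uncalled with median centring (0.70 and 0.29). Malate dehydrogenase Mdh2 was lower at -0.59 ± 0.07 (adjusted p = 0.00202).

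Of 21 regulators of mitochondrial biogenesis, 2 were higher and 4 lower (0 and 5 with median centring), with a median of -0.23. The coactivators Ppargc1b and Ppargc1a were both lower. Their spots were dim, at mean log2 signals of 7.75 and 6.82, the latter near the 6.08 of Pecam1, which was not above background. Ppargc1b gave -0.99, -1.05, -1.09 and -1.04 (-1.04 ± 0.04, adjusted p = 0.000169), and Ppargc1a gave -0.15, -0.73, -0.63 and -0.64 (-0.53 ± 0.26, adjusted p = 0.0107). Both were lower with median centring too, at -1.17 and -0.67. Polrmt, the polymerase that transcribes mitochondrial DNA, was lower at -0.79 ± 0.32 (adjusted p = 0.00310).

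Of 25 genes for carriers, coenzyme Q and electron entry, 5 were higher and 6 lower (3 and 7 with median centring). Slc25a11, the oxoglutarate carrier, was higher at 1.01 ± 0.25. Pdss1, which makes the tail of coenzyme Q, was lower at -1.06 ± 0.31, and Coq7, a hydroxylase of the same pathway, was lower at -0.75 ± 0.10. All 3 calls held with median centring.

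Of 23 genes of inner membrane organisation and cardiolipin, 6 were higher and 5 lower (1 and 4 with median centring). Pgs1, of the cardiolipin pathway, was lower at -0.98 ± 0.12, and Micos13, of the complex that shapes cristae, was higher at 1.09 ± 0.34, both also with median centring. The protease Oma1 was higher at 0.58 ± 0.04, uncalled with median centring. The shares called in these 5 lists were each below the 53.9% of all genes, from 28.6% for the regulators to 47.8% for the inner membrane list.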

How the data were processed

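Both RNAs of each pair were hybridised to 1 array, and 4 scanner tables were used. Per the file headers, the deposited intensity values are median pixel brightness of spots and local background, not normalized, as written by Feature Extraction 10.7.3.1, Agilent's scanner software (10.9 per the submitters' processing notes). The deposited log10 values are its background-subtracted, dye-normalized ratios of Cy5 over Cy3. The series table held the same ratios (largest difference 5e-05).

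Here, background was corrected with normexp (offset 50) and ratios normalized by loess within arrays, control spots unweighted. Outlier spots (94 to 137 an array) were dropped, spots averaged per probe, and a probe was tested if 1 channel or both exceeded background clearly on each of the 4 arrays. No spot was saturated, and the number of arrays limits the precision. Symbols came from RefSeq by accession (64.8% of probes). A gene's brightest probe carried its call. Mean ratios were tested against 0 with limma (lmFit, eBayes; Benjamini-Hochberg over 23497 probes; called under 0.05), pairing channels by array. The analysis had been planned on mean signals, and median signals were used. Scripts were tested on simulated data. Named genes were Rap1a, members at 2-fold, the 10 largest rises and falls, 3 smallest p per complex, isoform families, and 3 per list. Others are named to account for every member, after their values were seen. Members and lists were chosen with earlier results of these data known. 1 member is not reported here and stays in all counts. R 4.3.3, limma 3.58.1, Python 3.11.15 and matplotlib 3.10.9 were used.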

Additional observations from a re-analysis of the deposited data

Results flagged for a closer look

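In 3 of 41 genes examined, 1 array lay apart from the other 3 by more than the critical gap for 4 values (Dixon, 95%). Chance alone marks about 1 in 20 groups. The 41 do not cover all 89 members tested, so 3 of 41 is no rate over the members. Array 1 was the one apart for Ndufa12 (-0.81 against -0.47 to -0.46) and for Cox6a2 (-0.62 against -0.02 to 0.07). For Atp5g3 it was array 4 (-0.72 against -0.54 to -0.51).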

How the results depend on the processing

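With median centring there were 3 higher and 42 lower members, and medians of -0.43, 0.16, -0.71, -0.70 and -0.65 for complexes I to V and -0.49 for the assembly factors. Called were 0 genes of complex II (1 at an unadjusted p under 0.05 in limma), 6 of III, 11 of V and 33 list genes (59 otherwise), and 32 of 89 ratios turned from above to below 0, 8 of them among the 18 members called higher. Among those named by rule these included Cox4i1 (-0.70), Atp5g2 (-0.43) and Atp5e (-0.063). Array weights gave 39 higher and 28 lower members, 27, 6, 11 and 12 calls in complexes I, III, IV and V, 102 list genes called and an assembly factor median of -0.38. Plain subtraction left 3 calls in complex IV and 3 in V, with an assembly factor median of -0.34. The scanner software's ratios and the series table left 1 call in complex IV, with medians of -0.027 for complex III and -0.40 for the assembly factors. Without the replicate block that pairs channels by array, 1 call was left in complex II and 38 among the list genes. Counting every probe put the complex II median at 0.36, and counting Ndufaf genes with complex I gave 16 calls there. The cause was not tested in these cases. Leaving out 1 array at a time gave 9 to 31 members higher, 10 to 25 lower, 5 to 23 calls in complex I, 2 to 8 in IV, 3 to 11 in V, assembly factor medians from -0.37 to -0.29 and 33 to 94 list genes called. The highest counts came without array 1. Turning every sign exchanges higher and lower by construction. An offset of 16, quantile or scale normalization between arrays, other filters, kept outlier spots, other variance models and gene means kept all counts within 1.5 times and all medians within the spread between arrays. For quantile normalization this was fixed in advance, as it leaves every ratio unchanged.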
